A study of Mus musculus with 24 samples.

Results

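The comparison described is that of primary dermal fibroblasts from NIK knockout mice (KO) after 6 h of TWEAK with the same cells left untreated. It rests on 4 of the 24 libraries of the series, chosen by genotype and time alone: KO at 6 h, replicates 1 and 2, and KO untreated, replicates 1 and 2. The cells were grown from mouse skin and treated at passage 5 with TWEAK at 100 ng/ml. Wild-type cells (WT) had 4 libraries untreated and 4 at 6 h and serve for comparison. The series also holds KO and WT libraries at 24 h and libraries of cells labelled NIK X mut, which enter the shared estimate of the spread. The early libraries are called 6 h in the sample titles and in the authors' comparison, whereas the library names give 3 h, and they are called 6 h here. The labels do not say which part of the NIK gene was deleted, whether replicates came from separate mice, or which RNA kit served which library, so p-values measure the spread between these libraries, which may be technical. Because no untreated library was taken at 6 h, an effect of TWEAK and one of time in culture or of handling cannot be told apart.

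TWEAK is a cytokine of the TNF family that binds the receptor Fn14, encoded by Tnfrsf12a. In the noncanonical branch of NF-kB signalling the kinase NIK, encoded by Map3k14, accumulates when the TRAF3, TRAF2 and cIAP complex that degrades it is engaged, and through IKK1 it drives the processing of p100, the product of Nfkb2, to p52, the partner of RelB. The canonical branch runs through IKK2, the loss of IkB-alpha and the release of p65 and p50, and is known not to require NIK for many stimuli. Among its early targets in fibroblasts are chemokines and the genes of its own inhibitors, and Nfkb2 and Relb themselves.

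The targeted gene was nearly absent from the knockout. Map3k14 (GRCm38 chromosome 11, 103219762 to 103267472, minus strand, protein-coding) had 1 and 0 UMIs in the untreated KO libraries and 0 and 1 at 6 h, against 34 to 82 UMIs in the WT libraries untreated and at 6 h. The 2 UMIs in 6639062 of the 4 KO libraries correspond to 0.301 CPM (95% exact interval 0.0365 to 1.09, counting error only). The labelled cell type was checked from its markers: 17 of 18 dermal fibroblast markers were in the table and summed to 25200 to 29050 CPM untreated and 26410 to 28900 CPM at 6 h. Muscle and pericyte markers, 8 of 10 in the table, summed to 151 to 272 CPM untreated and 189 to 212 CPM at 6 h. Melanocyte and Schwann cell markers summed to at most 28.3 CPM, adipocyte markers to at most 19.6 CPM, keratinocyte markers to at most 10.0 CPM and endothelial markers to at most 13.0 CPM, with Krt5, Epcam, Pecam1, Ptprc and Itgam not in the table. Leukocyte markers summed to 5.80 to 6.96 CPM untreated and 9.61 to 10.9 CPM at 6 h, from Lyz2, Cd68 and Csf1r alone of 10 listed. These leukocyte sums rest on few UMIs: Lyz2 had 8 and 6 untreated and 5 and 17 at 6 h. Cd68 had 4 and 2 UMIs, then 4 and 5. Csf1r went the other way, with 4 and 0 UMIs untreated and 0 and 0 at 6 h. The leukocyte sum was thus higher at 6 h, and its part in the results on immune genes was not tested. The 4 KO libraries held 2297810, 1379946, 936974 and 2024332 UMIs, in a series that ranged from 889863 to 4342981. The treated replicate 1 was thus the shallowest of them, and 1 UMI in it weighs most. Replicates correlated at 0.957 untreated and 0.963 at 6 h (Pearson, log2 CPM over 7289 genes, a description across genes).

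Few genes passed the test in the absence of NIK, and all of them rose. Of 11337 genes tested, 9 rose (0.0794% of genes tested) and 0 fell (0% of genes tested) by the quasi-likelihood test of edgeR, with Benjamini-Hochberg adjustment and a threshold of 0.05. The 9 were the chemokine genes Ccl2, Ccl20, Cxcl10 and Cxcl16, the NF-kB subunit genes Nfkb2 and Relb, the inhibitor genes Nfkbia and Tnip1, and Iigp1, an interferon-inducible GTPase gene. At an unadjusted p under 0.05 there were 223 genes higher (1.97% of genes tested) and 105 lower (0.926%), 328 in all (2.89%), fewer than the 566.8 that unchanged genes would give on average, and DESeq2 called 10 higher and 0 lower. In the authors' deposited table the same 9 genes had an adjusted p-value under 0.05, from 4.562e-14 for Ccl2 to 0.01276 for Iigp1, and all were higher. The count rests on all 4 libraries: it was 2 without untreated replicate 1, 2 without untreated replicate 2, 3 without the 6 h replicate 1 and 1 without the 6 h replicate 2, where the lone sample is assumed to vary like the other groups. Ccl2 passed in each of these 4 fits and Relb in 3, the exception being the fit without the 6 h replicate 2.

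**Figure D1:**
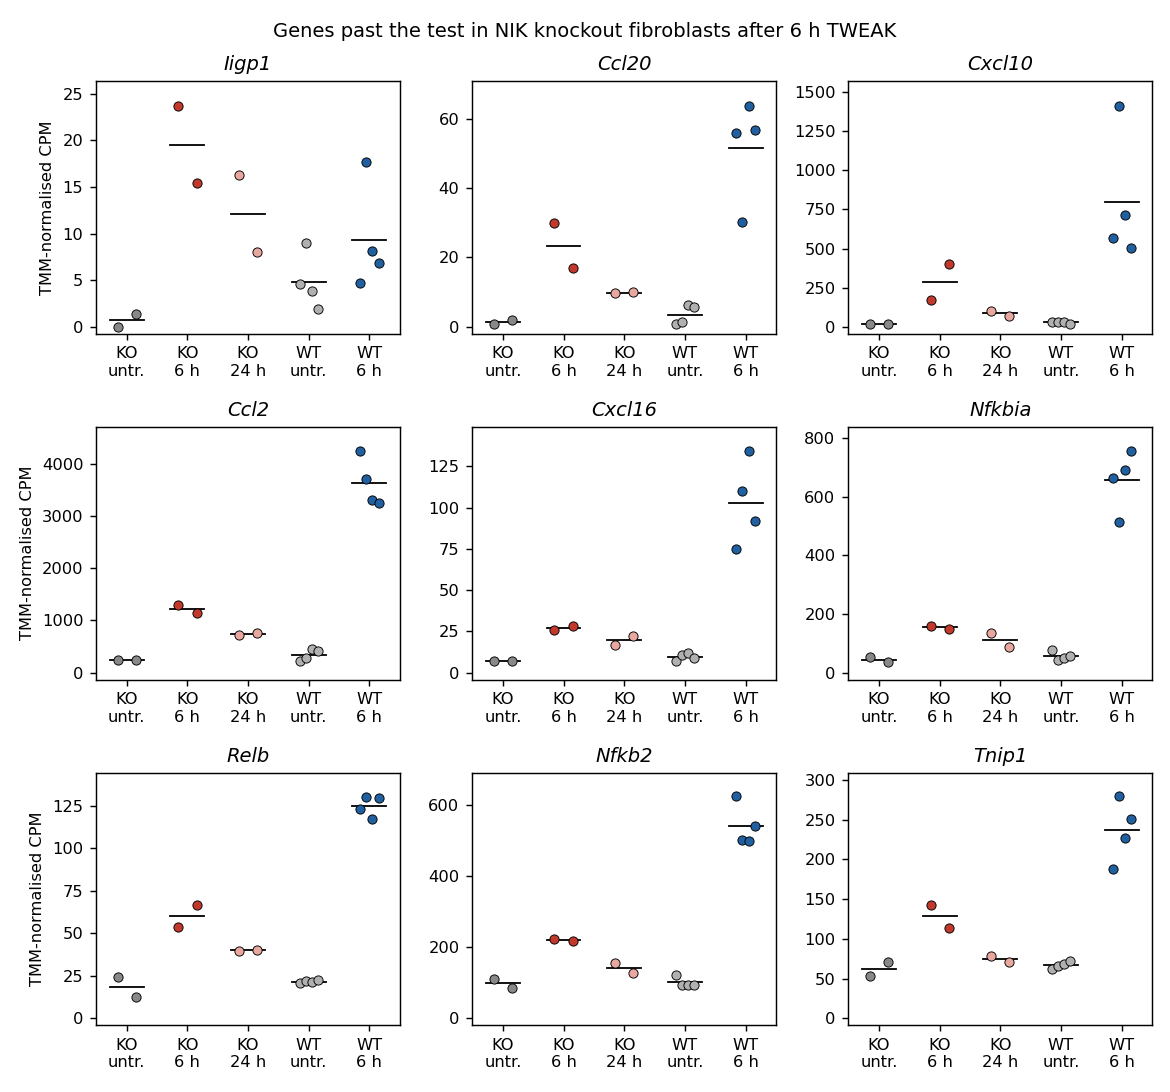
TMM-normalised CPM (y axis, linear, a separate scale per gene) of the 9 genes that passed the test in KO at 6 h. Points are libraries of KO untreated, KO at 6 h, KO at 24 h, WT untreated and WT at 6 h, and lines are group means; both KO libraries at 6 h lie above both untreated ones in every panel, and below all 4 WT libraries at 6 h in 8 of the 9.

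The promoters of these genes are shown because NF-kB binds a known class of DNA element, the kappaB site, and the genes that passed are mostly textbook NF-kB targets. RefSeq promoters (250 bases before to 50 after the start, GRCm38.p6) were at hand for 5 of the 9, and each of the 5 holds at least 1 match to the kappaB consensus, searched on both strands. The consensus occurs in 12.6% of the 8792 tested genes that have a promoter entry and in 9.55% of all 27025 genes with one. A gene counts if any of its listed promoters holds a match. The sequences are written 5′ to 3′ along the gene's strand, with the kappaB matches in capitals, overlapping matches joined, and Nfkb2 given by the first of 3 promoters listed.
Ccl20, chr1:83116516-83116815, plus strand: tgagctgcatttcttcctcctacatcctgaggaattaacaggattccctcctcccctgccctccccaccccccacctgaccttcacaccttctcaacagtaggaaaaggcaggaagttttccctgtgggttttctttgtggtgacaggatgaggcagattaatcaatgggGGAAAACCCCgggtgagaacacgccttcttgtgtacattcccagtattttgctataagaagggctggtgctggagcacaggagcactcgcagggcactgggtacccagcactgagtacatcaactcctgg
Cxcl10, chr5:92348840-92349139, minus strand: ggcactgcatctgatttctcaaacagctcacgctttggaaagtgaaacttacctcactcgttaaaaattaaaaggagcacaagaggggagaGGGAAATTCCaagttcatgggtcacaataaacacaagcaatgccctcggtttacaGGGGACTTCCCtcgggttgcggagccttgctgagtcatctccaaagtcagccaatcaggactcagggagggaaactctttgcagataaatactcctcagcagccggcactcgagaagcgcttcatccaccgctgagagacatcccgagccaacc
Nfkbia, chr12:55492598-55492897, minus strand: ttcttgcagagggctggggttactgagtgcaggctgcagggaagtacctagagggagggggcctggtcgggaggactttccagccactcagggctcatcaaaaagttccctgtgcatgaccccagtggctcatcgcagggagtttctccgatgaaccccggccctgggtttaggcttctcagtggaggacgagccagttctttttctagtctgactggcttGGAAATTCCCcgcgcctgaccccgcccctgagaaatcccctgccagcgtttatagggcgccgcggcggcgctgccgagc
Nfkb2, chr19:46304487-46304786, plus strand: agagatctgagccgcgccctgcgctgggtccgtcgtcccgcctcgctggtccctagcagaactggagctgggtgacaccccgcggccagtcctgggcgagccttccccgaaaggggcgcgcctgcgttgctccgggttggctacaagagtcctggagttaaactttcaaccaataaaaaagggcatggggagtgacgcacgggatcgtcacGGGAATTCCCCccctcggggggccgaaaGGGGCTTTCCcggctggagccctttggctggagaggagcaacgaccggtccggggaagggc
Tnip1, chr11:54962891-54963190, minus strand: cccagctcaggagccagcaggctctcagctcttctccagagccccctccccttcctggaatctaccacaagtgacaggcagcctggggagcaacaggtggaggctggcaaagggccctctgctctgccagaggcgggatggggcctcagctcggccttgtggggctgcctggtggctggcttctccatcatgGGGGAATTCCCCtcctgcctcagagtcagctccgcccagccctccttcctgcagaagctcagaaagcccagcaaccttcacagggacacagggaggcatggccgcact
Counted from the transcription start, the matches lie at -80 to -71 in Ccl20, at -159 to -150 and -104 to -94 in Cxcl10, at -29 to -20 in Nfkbia, at -39 to -29 and -11 to -2 in Nfkb2, and at -58 to -47 in Tnip1. The longest run is that of Tnip1, GGGGAATTCCCC, which reads the same on both strands. Cxcl10 also holds TGAGTCA, a match to the AP-1 element TGANTCA, at -74 to -68, and GAAAGTGAAA, a match to the interferon response core (GAAA, any 2 bases, GAAA), at -213 to -204, and neither overlaps its kappaB matches. A match describes these letters only. Ccl2, Cxcl16 and Relb are named without a sequence, as is Iigp1.

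Chemokine genes made up 4 of the 9. Of 25 chemokine genes listed, 18 were tested; 4 rose, 0 fell, and the median log2 change over the 18 was 1.36, beside -0.0025 over all genes tested. In 12 of the 18 both treated libraries lay above both untreated ones, beside 15.2% of all genes tested, and in 0 both lay below, beside 14% of all genes. Only 18 passed the filter on low counts, so these figures do not cover the whole list.

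Ccl2 (chromosome 11, 82035571 to 82037453, plus strand) encodes a ligand of CCR2 that draws monocytes. It stood at 235 and 247 CPM untreated and at 1293 and 1150 CPM at 6 h, a log2 change of 2.34 ± 0.28 (SE, n = 2 and 2; edgeR adjusted p = 0.000266). The libraries of each group nearly coincided, and it was the gene with the smallest p. Ccl20 (chromosome 1, 83116766 to 83119167, plus strand) encodes the ligand of CCR6. It rose from 0.862 and 2.10 CPM, which are 2 and 3 UMIs, to 29.9 and 16.9 CPM, which are 29 and 35 UMIs, a log2 change of 3.999 ± 0.75 (edgeR adjusted p = 0.038; 3.37 to 4.61 over the 11 alternatives). Cxcl10 (chromosome 5, 92346638 to 92348889, minus strand) encodes a ligand of CXCR3 that is inducible by both interferon and NF-kB. Its CPM were 16.4 and 21.0 untreated and 173 and 404 at 6 h, a log2 change of 3.98 ± 0.53 (edgeR adjusted p = 0.000737). The treated libraries differed from each other more than for Ccl2, and the log2 change was 3.22 to 4.45 over the alternatives. Cxcl16 (chromosome 11, 70453983 to 70459984, minus strand), which encodes a transmembrane ligand of CXCR6, stood at 6.90 and 7.003 CPM untreated and 25.8 and 27.96 CPM at 6 h, a log2 change of 1.95 ± 0.33 (edgeR adjusted p = 0.0148). The annotation has genes on the opposite strand over Ccl2 (Gm17268), Cxcl10 (Art3) and Cxcl16 (Zmynd15), and whether counting used the strand is not given in the sources used here.

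Other chemokine genes did not pass the test. Ccl7, a neighbour of Ccl2 in the same gene cluster, had 207 and 219 CPM untreated and 418 and 482 CPM at 6 h (log2 1.08 ± 0.32, edgeR adjusted p = 0.80). Cxcl5, a neutrophil chemoattractant, had 35.8 and 28.7 CPM untreated and 58.7 and 90.2 CPM at 6 h (log2 1.22 ± 0.36, edgeR adjusted p = 0.858). Cxcl9, a further CXCR3 ligand, had 0 UMIs in both untreated libraries and 2 and 4 at 6 h, which is at least 2.48-fold higher when the untreated pair is set to 3 UMIs in all. Cxcl12, the constitutive fibroblast ligand of CXCR4, overlapped between the groups at 344 and 447 CPM untreated and 345 and 375 CPM at 6 h.

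The genes of the NF-kB system that passed were those of 2 subunits and 2 inhibitors. Of 13 noncanonical components tested, 2 rose, 0 fell and 6 (46.2%) had both treated libraries above both untreated (median log2 change 0.37). Of 22 canonical subunits, kinases and feedback inhibitors tested out of 24 listed, 2 rose, 0 fell and 14 (63.6%) had both treated libraries above (median 0.38). Over all genes tested, 0.0794% rose and 15.2% had both treated libraries above.

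Relb (chromosome 7, 19606217 to 19629438, minus strand) encodes the subunit that pairs with p52. It stood at 24.6 and 12.6 CPM untreated and 53.6 and 66.5 CPM at 6 h, a log2 change of 1.65 ± 0.22 (edgeR adjusted p = 0.000737; 1.30 to 2.26 over the alternatives). The untreated libraries differed from each other, but neither reached the treated ones. Nfkb2 (chromosome 19, 46304320 to 46312385, plus strand, overlapped on the minus strand by Psd) encodes p100. It went from 112 and 86.1 CPM to 224 and 218 CPM, a log2 change of 1.15 ± 0.20 (edgeR adjusted p = 0.0205). Nfkbia (chromosome 12, 55489410 to 55492647, minus strand) encodes IkB-alpha, the inhibitor whose resynthesis ends a canonical response. It stood at 52.6 and 35.7 CPM untreated and 160 and 150 CPM at 6 h, a log2 change of 1.79 ± 0.34 (edgeR adjusted p = 0.0377). Tnip1 (chromosome 11, 54910785 to 54962917, minus strand, overlapped on the plus strand by Gm12230) encodes ABIN-1, a ubiquitin-binding partner of A20. It went from 53.9 and 70.7 CPM to 143 and 113 CPM, a log2 change of 1.04 ± 0.20 (edgeR adjusted p = 0.0474). Of the 9 it was the least firm: it passed in 3 of the 11 alternatives, against 11 for Ccl2, 10 for Relb, 8 for Cxcl10, 7 for Iigp1, Ccl20, Cxcl16 and Nfkbia and 6 for Nfkb2.

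Their relatives did not pass the test. The log2 change of Nfkbie, 1.60, exceeded those of Nfkb2 (1.15) and Tnip1 (1.04), while the others given here changed less. Nfkb1, encoding p105 and p50, had 66.0 and 63.0 CPM untreated and 106 and 94.0 CPM at 6 h (log2 0.63 ± 0.21). Rela, encoding p65, had 160 and 161 CPM untreated and 198 and 211 CPM at 6 h (log2 0.35 ± 0.21). Nfkbie, encoding IkB-epsilon, had 7.76 and 5.60 CPM untreated and 19.6 and 21.7 CPM at 6 h (log2 1.60 ± 0.40, edgeR adjusted p = 0.457). Traf3, the adaptor that holds NIK for degradation, had 31.0 and 31.5 CPM untreated and 68.0 and 56.9 CPM at 6 h (log2 0.99 ± 0.25, edgeR adjusted p = 0.473). Birc3, encoding cIAP2, had 11.6 and 12.6 CPM untreated and 22.7 and 24.6 CPM at 6 h (log2 0.98 ± 0.27, edgeR adjusted p = 0.722). In each of these 5 genes both treated libraries lay above both untreated ones, as in 15.2% of all genes tested. Among the other relatives given here, Chuk and Tnfaip3 overlapped, and Ikbkb and Tnfrsf12a did not. Of the kinase genes, Chuk, encoding IKK1, stood at 33.2 and 40.6 CPM untreated and 66.0 and 40.5 CPM at 6 h (log2 0.50). Ikbkb, encoding IKK2, stood at 30.6 and 17.5 CPM untreated and 34.01 and 30.9 CPM at 6 h (log2 0.39). The receptor gene Tnfrsf12a was among the more abundant, with 326 and 382 CPM untreated and 458 and 424 CPM at 6 h (log2 0.32 ± 0.49). Tnfaip3, encoding the deubiquitinase A20, had 4.31 and 4.20 CPM untreated and 9.28 and 3.38 CPM at 6 h.

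Interferon-stimulated genes were the list in which the KO libraries separated most often. Of 30 listed, 25 were tested; 1 rose, 0 fell, and the median log2 change was 1.10. With only the 4 KO libraries fitted, 14 of 11337 genes rose and 1 fell. Gbp2, Gbp3, Ifit3 and Rsad2 were gained there, as were Gm2830, Rpl36a-ps2 and Serpina3g, while Nfkb2 and Tnip1 were lost. Of the 11 alternatives, Gbp2 passed in 3, and Gbp3 and Rsad2 each in 1. Both treated libraries lay above both untreated in 22 of 25 (88%), beside 15.2% of all genes tested, and below in 0. These counts describe the 4 libraries, since the members are not replicates. The summed leukocyte markers were higher at 6 h as well, at 9.61 to 10.9 CPM against 5.80 to 6.96 CPM. They rest on few UMIs, Csf1r was lower at 6 h, and Ptprc and Itgam were not in the table. The part of these markers in the result was not tested.

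Iigp1 was the member past the test. It had 0 and 2 UMIs (0 and 1.40 CPM) untreated and 23 and 32 UMIs (23.7 and 15.4 CPM) at 6 h, a fitted log2 change of 4.99 ± 0.89 (edgeR adjusted p = 0.0230; 3.71 to 8.46 over the alternatives, and with so few untreated UMIs the prior count sets part of that size). The ratio of raw UMIs per total was 34.2 (95% exact interval 9.02 to 289, counting error only). Both untreated KO libraries lay below all 4 untreated WT libraries, which stood at 4.57, 9.01, 3.82 and 1.93 CPM, as 5.48% of all genes tested did (5.95% lay above). At 6 h the KO values of 23.7 and 15.4 CPM overlapped those of WT, at 4.74, 17.7, 8.13 and 6.88 CPM.

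Among the members that did not pass, Gbp2 and Gbp3, guanylate-binding GTPases of host defence, had the next smallest p. Gbp2 stood at 18.1 and 30.1 CPM untreated and 71.1 and 91.1 CPM at 6 h (log2 1.80 ± 0.44, edgeR adjusted p = 0.457), and Gbp3 at 17.2 and 27.3 CPM and then 60.8 and 108 CPM (log2 1.99 ± 0.54, edgeR adjusted p = 0.681). Rsad2, encoding the antiviral enzyme viperin, stood at 2.59 and 9.80 CPM untreated and 31.9 and 27.96 CPM at 6 h (log2 2.39 ± 0.67, edgeR adjusted p = 0.722). Ifih1, the RNA sensor MDA5, stood at 17.7 and 25.9 CPM untreated and 48.4 and 55.4 CPM at 6 h (log2 1.29 ± 0.38, edgeR adjusted p = 0.781). In all 4 genes both treated libraries lay above both untreated ones, as in 15.2% of all genes tested. A low p in this same contrast makes such a separation likely, so it adds no support. Ifit1 (32.8 and 82.6 CPM, then 121 and 203 CPM) and Isg15, a ubiquitin-like modifier (163 and 391 CPM, then 434 and 504 CPM), also differed between the untreated libraries themselves. Gbp, Ifit and MHC class I genes belong to families with near-identical copies, so their counts may be shared between members.

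**Figure D2:**
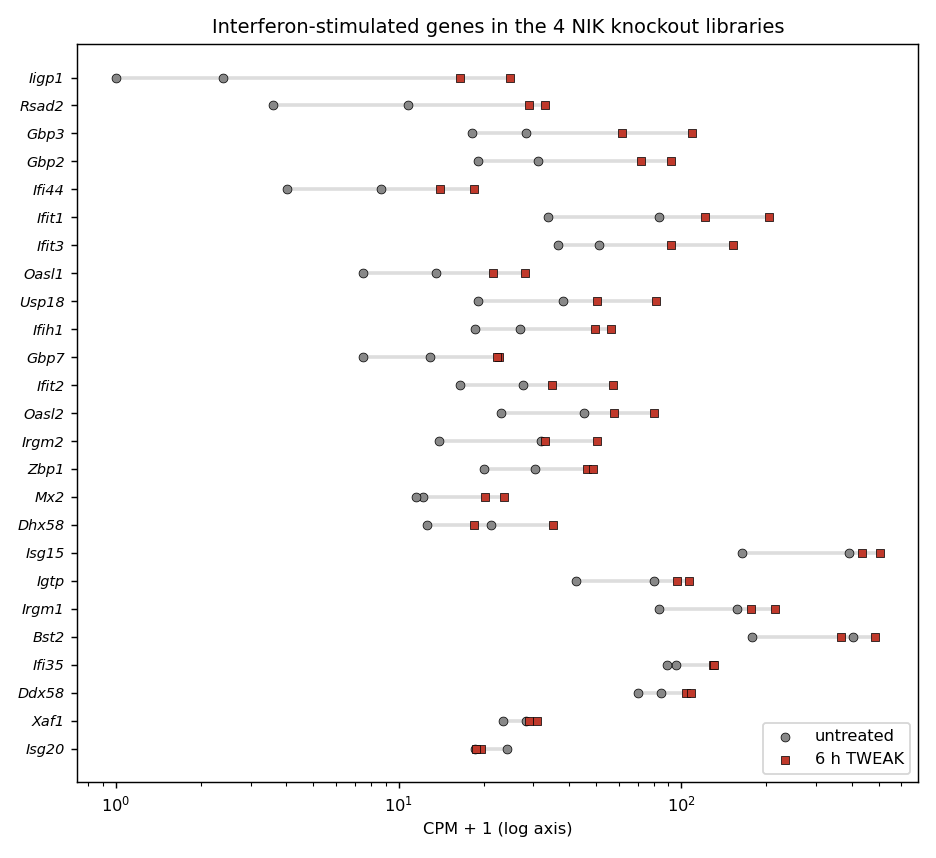
CPM + 1 (x axis, log scale) of the 25 tested interferon-stimulated genes in the 4 KO libraries, ordered by fitted log2 change. Grey circles are the 2 untreated libraries and red squares the 2 libraries at 6 h; in 22 of 25 genes both squares lie to the right of both circles, and Isg20, Dhx58 and Bst2 overlap.

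The 2 untreated KO libraries did not stand at the same interferon level. Replicate 1 was below replicate 2 in 22 of the 25 members (88%), beside 50% of all genes tested, with a median difference of -0.79 on the log2(CPM + 1) scale. Against untreated replicate 1 the median change was 1.24 and 1.60 for the treated replicates 1 and 2, and against untreated replicate 2 it was 0.54 and 0.78. The list was higher at 6 h against either untreated library, and the size depended on which one served. The median level over the members, as log2(CPM + 1), was 4.26 and 4.93 in untreated KO and 5.63 and 5.84 in KO at 6 h. In WT it was 4.85, 5.27, 4.50 and 4.81 untreated and 4.94, 6.00, 5.28 and 4.81 at 6 h. Treated KO libraries thus lay within the range of treated WT libraries, and the untreated KO replicate 1 lay below every WT library. Single genes that stood higher in both treated KO libraries than in all 4 treated WT libraries were Ifih1, Isg15, Mx2, Oasl1 and Rsad2, 5 of 25, beside 11.5% of all genes tested.

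The promoters of 3 members are shown because most of the list holds the interferon response core. Of 20 members with a RefSeq promoter, 13 (65%) hold that core (GAAA, any 2 bases, GAAA) on either strand, beside 3.51% of tested genes. The matches, in capitals, are the only ones of this core in each window.
Gbp2, chr3:142620413-142620712, plus strand: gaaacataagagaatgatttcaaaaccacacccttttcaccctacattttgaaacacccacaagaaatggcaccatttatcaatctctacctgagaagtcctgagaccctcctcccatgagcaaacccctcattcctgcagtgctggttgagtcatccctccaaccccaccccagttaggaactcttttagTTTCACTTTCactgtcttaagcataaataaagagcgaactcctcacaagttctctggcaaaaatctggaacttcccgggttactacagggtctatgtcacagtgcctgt
Rsad2, chr12:26456403-26456702, minus strand: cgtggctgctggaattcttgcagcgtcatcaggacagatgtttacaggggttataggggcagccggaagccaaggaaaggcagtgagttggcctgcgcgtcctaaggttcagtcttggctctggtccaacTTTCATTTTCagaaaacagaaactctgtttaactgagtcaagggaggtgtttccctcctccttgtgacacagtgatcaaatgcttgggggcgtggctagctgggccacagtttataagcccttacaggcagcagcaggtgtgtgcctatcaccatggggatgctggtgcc
Isg15, chr4:156200769-156201068, minus strand: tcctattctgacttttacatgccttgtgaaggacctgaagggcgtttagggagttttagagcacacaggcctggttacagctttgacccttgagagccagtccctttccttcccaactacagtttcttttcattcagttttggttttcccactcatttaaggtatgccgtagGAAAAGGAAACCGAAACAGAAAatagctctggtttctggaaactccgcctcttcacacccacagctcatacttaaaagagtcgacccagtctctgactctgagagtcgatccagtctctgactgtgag
The core lies at -59 to -50 in Gbp2 and at -120 to -111 in Rsad2, on the reverse strand in both, and as a run of overlapping copies at -78 to -57 in Isg15. Gbp2 also has a kappaB match, GGAACTTCCC, at 8 to 17. The kappaB consensus occurs in 5 of the 20 members (25%), beside the 12.6% of tested genes.

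The interferon regulatory factors and STATs, which control these genes, gave smaller differences. Of 12 tested, 0 passed; the median log2 change was 0.39 and 8 (66.7%) had both treated libraries above both untreated, beside 15.2% of all genes tested. Irf1, an interferon-inducible transcription factor gene, stood at 43.6 and 46.9 CPM and then 71.1 and 82.9 CPM (log2 0.78 ± 0.31). Irf7 had 108 and 147 CPM untreated and 163 and 197 CPM at 6 h.

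MHC class I and peptide-loading genes followed the same description. Of 18 tested, 0 passed and 18 had a positive log2 change, beside 49.5% of all genes tested. In 15 (83.3%) both treated libraries lay above both untreated, beside 15.2% of all genes tested, and the median was 0.75. H2-K1, a classical class I heavy chain, stood at 194 and 146 CPM untreated and 339 and 384 CPM at 6 h (log2 1.09 ± 0.37). Psmb10, a catalytic subunit of the immunoproteasome, stood at 83.2 and 112 CPM untreated and 233 and 195 CPM at 6 h (log2 1.14 ± 0.29, edgeR adjusted p = 0.505). Tapbp, encoding the loading chaperone tapasin, stood at 148 and 203 CPM untreated and 312 and 316 CPM at 6 h (log2 0.84 ± 0.24, edgeR adjusted p = 0.75). B2m, the shared light chain, overlapped at 176 and 120 CPM untreated and 158 and 197 CPM at 6 h.

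Cytokine, adhesion and survival genes, which include many TWEAK targets in WT cells, did not pass. Of 16 cytokines and growth factors tested, 5 (31.2%) had both treated libraries above and 2 (12.5%) below, beside 15.2% and 14% of all genes tested (median log2 0.18). Csf1, the growth factor of macrophages, had 621 and 582 CPM untreated and 992 and 973 CPM at 6 h (log2 0.71 ± 0.26). Csf2, encoding GM-CSF, had 0 UMIs in all 4 KO libraries, where 3 UMIs would be 1.31 to 3.20 CPM, and 51 UMIs over the 4 WT libraries at 6 h. Lif, a cytokine of the IL-6 family, had 7.33 and 5.60 CPM untreated and 4.12 and 11.1 CPM at 6 h. Of 7 adhesion genes tested, 4 (57.1%) had both treated libraries above (median 0.50): Icam1 stood at 22.9 and 12.6 CPM untreated and 30.9 and 49.2 CPM at 6 h, and Vcam1 at 56.5 and 54.6 CPM and then 84.5 and 106 CPM. Of 14 survival genes and TRAF adaptors, 8 (57.1%) had both treated libraries above and 1 (7.14%) below (median 0.46). Traf1, an adaptor gene that NF-kB induces, had 3 UMIs untreated and 6 at 6 h, a ratio of 2.48 (95% exact interval 0.53 to 15.3, counting error only).

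Of 23 immediate-early genes tested, 0 passed, and 9 (39.1%) had both treated libraries above both untreated and 1 (4.35%) below, beside 15.2% and 14% of all genes (median log2 0.18). Among them were Jun at 75.5 and 72.8 CPM untreated and 84.5 and 76.7 CPM at 6 h and Myc at 50.0 and 32.2 CPM and then 51.5 and 53.03 CPM. Of 17 ERK feedback genes, 4 (23.5%) were above and 4 (23.5%) below, beside the same 15.2% and 14% (median -0.02).

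In the lists whose members more often stood lower, 0 genes passed the test. Of 26 cholesterol and fatty acid synthesis genes, 25 had a negative log2 change, while 49.5% of all genes tested were positive. In 13 (50%) both treated libraries lay below both untreated, beside 14% of all genes, and the median was -0.25. Untreated replicate 1 was below untreated replicate 2 in 5 of the 26 (19.2%). By pair of treated and untreated library, the median change in log2(CPM + 1) ran from -0.41 to -0.07. Fdps, of the mevalonate pathway, stood at 585 and 520 CPM untreated and 461 and 404 CPM at 6 h. Its SE of 0.40 exceeds the size of its log2 change of -0.36. Of 27 developmental transcription factors, 10 (37%) had both treated libraries below and 3 (11.1%) above, beside 14% and 15.2% of all genes (median -0.11). Osr1, a mesenchymal zinc-finger factor, stood at 186 and 174 CPM untreated and 128 and 132 CPM at 6 h. Cell cycle genes (median -0.07 over 44) and unfolded protein and integrated stress response genes (median -0.08 over 20) had medians near 0. Of 35 genes of collagens and matrix proteins, 27 had a positive log2 change, beside 49.5% of all genes tested (median 0.09). In 4 (11.4%) both treated libraries lay above and in 1 (2.86%) below, beside 15.2% and 14%. Untreated replicate 1 was below untreated replicate 2 in 27 of the 35 (77.1%). Treated replicates 1 and 2 were higher in 23 and 30 members against untreated replicate 1, and in 11 and 18 against untreated replicate 2.

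**Figure D3:**
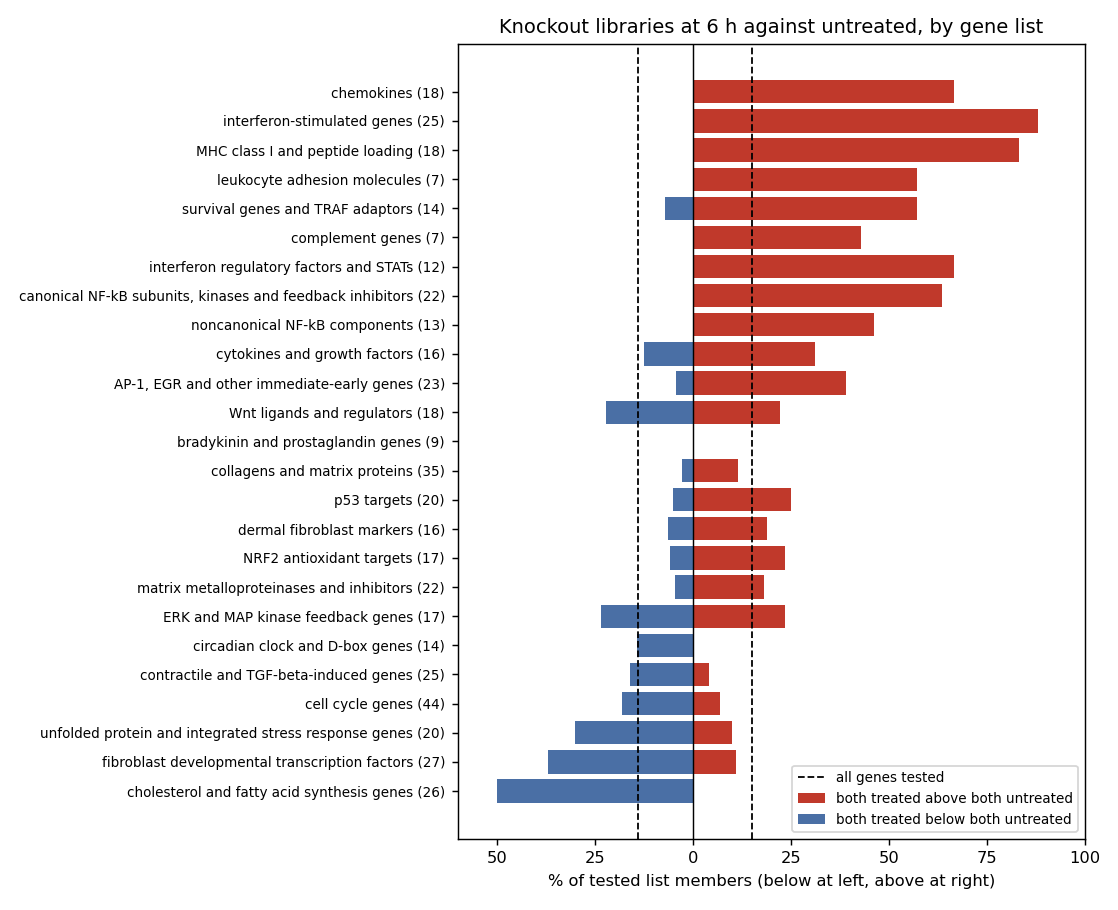
Percentage of the tested members of each gene list (number in brackets) in which both KO libraries at 6 h lay above both untreated ones (red, right) or below both (blue, left). Dashed lines mark the same percentages over all 11337 genes tested, 15.2% above and 14% below; interferon-stimulated genes reach 88% above and cholesterol and fatty acid synthesis genes 50% below.

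The comparison with WT asks how much of the 6 h response was seen without NIK. In WT, 493 genes rose (4.35% of genes tested) and 234 fell (2.06%), together 727 (6.41%). With the WT replicate numbers as a block, 1314 passed, of which 724 were among the 727. All 4 treated WT libraries lay above all 4 untreated in 4.28% of genes tested and below in 3.4%. Of the 9 genes that rose in KO, 8 were among the WT genes that rose, which is 88.9% of the KO list and 1.62% of the WT list, and the exception was Iigp1, whose WT log2 change of 0.95 did not pass (edgeR adjusted p = 0.244). Of the 493, 399 (80.9%) had a positive log2 change in KO, beside 49.5% of all genes tested, and in 234 (47.5%) both treated KO libraries lay above both untreated, beside 15.2%. Their median log2 change was 1.23 in WT and 0.30 in KO, with quartiles of 0.07 and 0.64 in KO, and 74 reached at least 1 in KO. Of the 234 that fell in WT, 191 (81.6%) had a negative log2 change in KO, while 49.5% of all genes tested were positive. In 93 (39.7%) both treated KO libraries lay below both untreated, beside 14% of all genes tested. The medians over the 234 were -0.91 in WT and -0.19 in KO. The WT list is chosen for large changes in WT, which by itself makes the WT median larger.

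WT replicates 1 and 2 and WT replicates 3 and 4 stood apart, which no label explains. The median level of 44 cell cycle genes, as log2(CPM + 1), was 4.50 and 4.11 in untreated WT replicates 1 and 2, 6.02 and 6.05 in replicates 3 and 4, and 4.37 and 4.21 in untreated KO. With the WT list called from replicates 1 and 2 alone, 214 genes rose in WT, 177 of them (82.7%) were positive in KO, and the KO median was 0.43. Called from replicates 3 and 4 alone, 848 rose, 636 (75%) were positive in KO, and the KO median was 0.19. The 8 shared genes passed in WT with either pair.

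For 7 of the 9 genes the change in KO was smaller than in WT, and the difference passed the test for Nfkb2. Its log2 change was 1.15 in KO and 2.41 in WT, a difference of -1.26 ± 0.24 (edgeR adjusted p = 0.0448), and the call was kept in 9 of 20 alternatives. The WT log2 changes of the others were 3.42 for Ccl2, 4.79 for Cxcl10, 3.42 for Cxcl16, 3.52 for Nfkbia, 2.54 for Relb and 1.82 for Tnip1. Their adjusted p for the difference ranged upwards from 0.202, that of Nfkbia, which does not show that they responded alike. For Nfkbia the difference passed with the replicate block (edgeR adjusted p = 0.0363) and with DESeq2 (adjusted p = 0.0192). For Ccl2 the difference passed with WT replicates 1 and 2 only (edgeR adjusted p = 0.0439). Ccl20 changed by 3.999 in KO and 3.96 in WT. The WT value was 5.22 from replicates 1 and 2 and 3.28 from replicates 3 and 4. The Ccl20 difference, KO minus WT, ran from -1.23 to 0.64 over the 20 alternatives. In levels, both treated KO libraries stood below all 4 treated WT libraries in 8 of the 9 genes, beside 10% of all genes tested. Ccl2 reached 3241 to 4239 CPM in treated WT, Nfkbia 512 to 754 CPM and Relb 117 to 130 CPM, against at most 1293, 160 and 66.5 CPM in treated KO.

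Over all genes, the response at 6 h differed between KO and WT in 11 (0.097% of genes tested), and in 4.83% at an unadjusted p under 0.05. In 8 (0.0706%) the KO response was lower: Gata3 (-2.90), Nfkbie (-2.57), Icam1 (-2.36), Slc20a1 (-2.14), Rnf19b (-1.71), Spsb1 (-1.46), Trim47 (-1.44) and Nfkb2 (-1.26), as log2 differences KO minus WT. Rnf19b, encoding an E3 ubiquitin ligase, had the smallest adjusted p, with 138 and 141 CPM untreated and 122 and 154 CPM at 6 h in KO against 129 to 152 CPM and then 383 to 531 CPM in WT (difference -1.71 ± 0.23, edgeR adjusted p = 0.00223). Icam1 reached 209 to 339 CPM in treated WT and at most 49.2 CPM in treated KO (adjusted p = 0.0467 by edgeR). In 3 (0.0265%) the KO value was higher, and all 3 fell in WT: Zfp503 (1.36), Ephb3 (1.67) and Osr1 (2.28). Osr1 stood at 117 to 269 CPM in untreated WT and 17.2 to 41.6 CPM at 6 h, while both KO groups lay between 128 and 186 CPM (adjusted p = 0.0138 by edgeR). This count also rests on single libraries: it was 1, 6, 0 and 1 without KO untreated replicate 1, KO untreated replicate 2, KO 6 h replicate 1 and KO 6 h replicate 2, and 5 to 13 without 1 WT library. Tnfaip3, at 3.29 in WT and 0.37 in KO, did not pass (edgeR adjusted p = 0.202), nor did the larger Iigp1 change in KO (difference 4.04, adjusted p = 0.392 by edgeR).

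By list, the medians of the genotypes were as follows. For interferon-stimulated genes the median log2 change was 1.10 in KO and 0.41 in WT, where 3 of 25 rose, beside 4.35% of all genes tested. The size of the KO change depended on which untreated library served, as described above. Chemokines had 1.36 in KO and 2.25 in WT, and MHC class I genes 0.75 in KO and 0.68 in WT. No interferon-stimulated or MHC class I gene passed the test of the difference, so the lists' medians are given as descriptions.

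**Figure D4:**
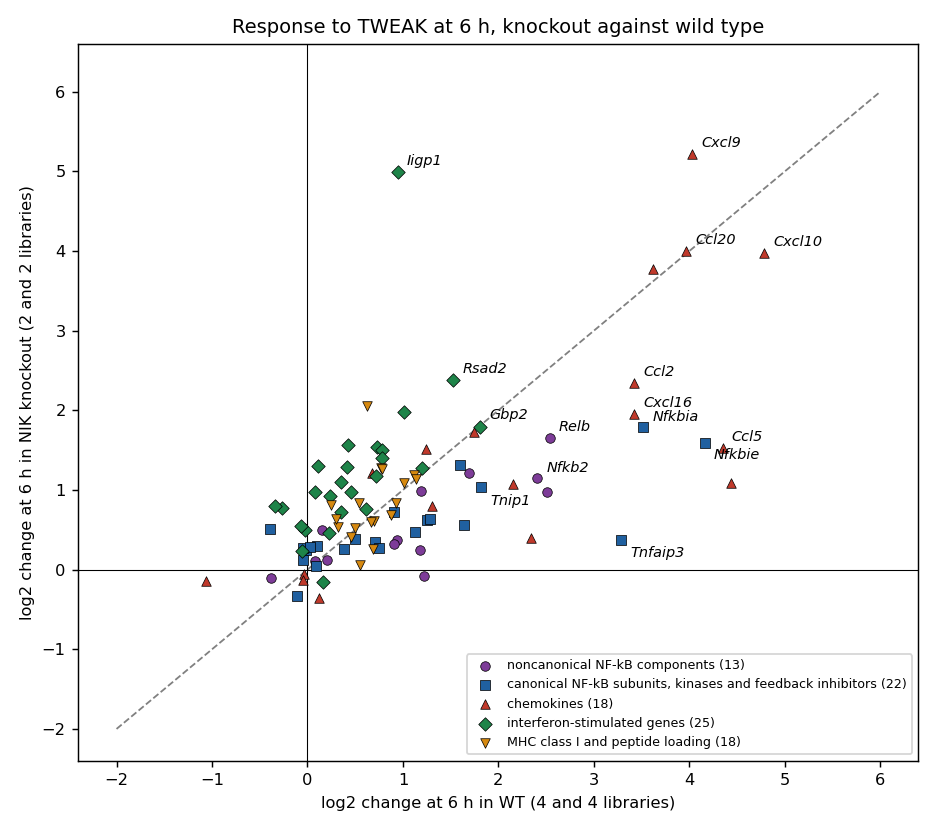
Fitted log2 change at 6 h in WT (x axis) against that in KO (y axis) for the tested members of 5 gene lists. The dashed line marks equal change; Nfkbia, Ccl2, Relb and Tnfaip3 lie below it, at WT values of 3.52, 3.42, 2.54 and 3.29, and Iigp1 lies above it, at 0.95 in WT and 4.99 in KO.

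At 24 h of TWEAK the 9 genes stood lower than at 6 h. In 8 of the 9 both KO libraries at 24 h lay below both at 6 h, beside 20% of all genes tested, with Iigp1 overlapping at 16.3 and 7.997 CPM, and in 8 both lay above both untreated, beside 16.5%, with Tnip1 overlapping at 78.4 and 70.5 CPM. The 9 genes were called on these same 6 h and untreated libraries, which by itself favours both patterns. The shares over all genes are thus no fair measure for them, and the counts are description only. Ccl2 had 729 and 756 CPM at 24 h, Cxcl10 102 and 71.0 CPM, and Nfkbia 135 and 87.5 CPM. In bulk libraries such as these, fewer cells that express a gene and less RNA per cell cannot be told apart.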

How the data were processed

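Bulk MARS-seq, a 3′ RNA-seq method that tags each molecule with a unique molecular identifier (UMI), was run on 50 ng of total RNA per library, per the labels. The deposited counts are raw UMI counts per gene and library, per the file headers. Tools listed without roles, per the submitters' processing notes, are STAR 2.7.10a, HTSeq, cutadapt and DESeq2, with the build GRCm38/mm10. The log2 fold changes and adjusted p-values of the authors' own comparison were used as deposited, and DESeq2 is named as their source in the submitters' processing notes.

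All 24 libraries were fitted in 9 groups of genotype and time with edgeR 4.0.16 (R 4.3.3, limma 3.58.1; TMM, quasi-likelihood), so that the KO contrast shares the spread of all groups. Of 13479 genes, 11337 passed filterByExpr and 2142 did not; no gene row had a maximum under 6 UMIs, and 0 pairs of libraries were identical. CPM are TMM-normalised, and library levels of lists use log2(CPM + 1). SE is the log2 change divided by the square root of F. Alternatives were other size factors, DESeq2 1.42.0, other filters, fewer libraries, a replicate block and leaving out each replicate. The scripts were tested on simulated data. Depth sets precision: 3 UMIs correspond to 1.31 to 3.20 CPM in the 4 KO libraries.

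The named genes were fixed NF-kB components, up to 15 of the largest rises and falls past the test with at least 5 CPM and no overlap, up to 5 members per list past the test, up to 10 genes each way in the KO minus WT difference, and list members given with their values. The members and lists were chosen with earlier results of these data known. WT libraries with the same number deviated together between untreated and 6 h (correlations 0.328 to 0.496 over 7289 genes). WT libraries with different numbers were not compared, and sets of WT replicates stood apart, as described above. Whether each number pairs WT libraries beyond that split was thus not tested, and the labels do not say. Some list members are not reported here.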

Additional observations from a re-analysis of the deposited data

Results flagged for a closer look

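Among the 9 genes that rose in KO, 18 groups of 4 WT libraries were examined for a library far from the others, and 2 had one, where chance gives about 1 in 20. The lowest untreated WT library for Cxcl10, at 18.01 CPM, stood off by 0.858 of the group's range. The highest untreated WT library for Nfkb2, at 122.9 CPM, stood off by 0.968 of the range. Neither touches a KO library.

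The 6 h response differed between KO and WT, by the test of the difference itself, in 11 genes. As log2 KO minus WT, the values were -2.90 for Gata3, -2.57 for Nfkbie, -2.36 for Icam1, -2.14 for Slc20a1, -1.71 for Rnf19b, -1.46 for Spsb1, -1.44 for Trim47 and -1.26 for Nfkb2. They were 1.36 for Zfp503, 1.67 for Ephb3 and 2.28 for Osr1.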

How the results depend on the processing

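The count of 9 genes that rose in KO was 8 with RLE size factors, without the filter or with 1 CPM in 4 libraries, each losing Tnip1, and 10 with DESeq2. It was 14 with only the libraries of the groups compared, where 7 were shared and 1 gene fell, and 1 to 3 with 1 KO library left out. The KO replicate numbers did not pair the libraries (correlation -0.282 between untreated and 6 h), and with the replicate block 14 rose, the 9 and Cd40, Cxcl5 (edgeR adjusted p = 0.0187), Gbp2 (0.0331), H2-K1 and Mcc. With the KO untreated numbers crossed, an alternative chosen after seeing the data, 16 rose in KO and 32 genes differed between KO and WT. The 727 genes past the test in WT were 224 with only the groups compared, 1314 with the replicate block, 307 with WT replicates 1 and 2 only, and 424 to 938 with 1 WT library left out, with 473, 424 and 457 without WT untreated replicate 2, WT 6 h replicate 3 and WT 6 h replicate 4. The 11 genes that differed were 20 with DESeq2, 29 with the replicate block, 0 with only the groups compared, 4 with WT replicates 1 and 2 only, and 0 to 13 with 1 library left out. The other settings left these counts within 1.5 times, 0 of the named log2 values past the test changed sign in a setting run, while 7 that were not past it did, and the causes were not tested. With 2 libraries a group and 936974 UMIs in the shallowest, smaller changes were not detectable.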

Other observations

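A few genes outside the lists, chosen after their values were seen, had low p in KO without passing the test. Slc11a2, which encodes the iron transporter DMT1, stood at 55.2 and 60.2 CPM untreated and 105 and 95.9 CPM at 6 h (log2 0.80 ± 0.17, edgeR adjusted p = 0.135), and DESeq2 called it. Its log2 change in WT was 0.89. Slc15a3, which encodes a lysosomal peptide and histidine transporter, had 0 UMIs in both untreated libraries and 4 and 9 at 6 h. Ptx3, which encodes a secreted pattern recognition molecule, stood at 77.6 and 115 CPM untreated and 232 and 166 CPM at 6 h. Among lower values, Hint3 stood at 25.9 and 44.8 CPM untreated and 13.4 and 18.8 CPM at 6 h (log2 -1.06, edgeR adjusted p = 0.722). The gene model Gm6136, which was not among the 30 smallest p, stood at 110 and 102 CPM untreated and 11.3 and 8.20 CPM at 6 h, and it was the gene that fell when only the groups compared were fitted.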
